A study of Mus musculus with 90 samples.

Results

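The effect of a meal on hepatic RNA was measured at zeitgeber time (ZT) 14, early in the dark phase, by comparing livers of fed mice with livers of mice from which food was withheld. The comparison holds 4 of the 54 RNA libraries of the study, which has 90 samples in all. They were chosen by their labels as 2 fed (ZT14-fed) and 2 unfed (ZT14-unfed) mice that received no injection, and each library came from the liver of a single mouse. All 4 were wild-type C57BL/6 animals, young adult C57BL/6N males per the study's methods, trained to night-restricted feeding (NRF), so that chow was present only in the dark. Fed mice were given chow at lights off and unfed mice were not. The RNA was depleted of ribosomal RNA rather than selected for poly(A) tails, so that noncoding transcripts without a tail could be read. The 2 mice of the same experiment taken at ZT10, before lights off, entered the fit to share its estimate of the spread. For comparison, poly(A)-selected RNA was used from 4 fed and 4 unfed vehicle-injected mice (wild-type C57BL/6, NRF, PBS injected shortly before the meal) and from 3 fed and 3 unfed lean mice (wild-type C57BL/6, kept on chow before NRF), all at ZT14. The lean mice were controls of a diet experiment of several weeks and so were older than the uninjected mice, per the study's methods. With 1 mouse per library, p-values measure the spread between these mice.

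The liver switches between making and storing fuel. During fasting, glucocorticoids act through the glucocorticoid receptor (GR) and glucagon acts through cAMP to raise genes of gluconeogenesis and amino acid breakdown, while the forkhead factor FOXO1 is active in the nucleus. Insulin released after a meal leads to phosphorylation of FOXO1 and its exit from the nucleus, and raises genes of lipid synthesis, largely through SREBP1c, a product of Srebf1.

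The values are read counts divided by transcript length and library depth (RPKM). The depth was estimated at 25800000 to 37900000 reads per library over the 6 libraries, from the size of the steps between low values. Hepatocyte markers were high in every liver, with 12 markers summing to 33010 to 40210 RPKM, and 5 of 7 neutrophil markers stayed under 0.5 RPKM in all 4 ZT14 mice. One library stood apart. In ZT14-unfed replicate 2, 18 skeletal muscle genes summed to 426 RPKM, against 2.77 to 4.96 RPKM in the other 5 libraries. Acta1, skeletal muscle actin, was 65.9 RPKM there, against 0.212 in the other unfed mouse and 0.093 and 0.104 in the fed mice, and Ckm, muscle creatine kinase, was 46.1 RPKM against 0.13 in the other unfed mouse. Counts below are therefore also given without that library where this moves them by more than a factor of 1.5. The part of muscle RNA in any result was not tested.

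Between fed and unfed mice, 531 of 10907 genes tested (4.87%) were higher and 207 (1.9%) were lower after the meal, by limma on log2(RPKM + 0.5) with a Benjamini-Hochberg adjusted p below 0.05. Genes past this threshold are said to have risen or fallen. Counts within gene lists below are to be read against these shares over all genes tested. The median gene differed by 0.12 on the log2 scale between fed and unfed mice, and by 0.00 once libraries were scaled by the median ratio, so the balance of rises and falls depends on the scaling. With that scaling, 278 genes (2.55%) were higher and 329 (3.02%) lower. Without unfed replicate 2, 140 genes were higher and 82 lower. The values of both fed mice lay above those of both unfed mice for 45.6% of all genes tested and below them for 14.1%, so that lack of overlap among 4 mice is not a rare event. An exact permutation test on a single gene could not give a two-sided p below 0.33 with 2 mice a side, and all p-values therefore rest on a spread shared across genes.

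The largest fall was that of Igfbp1, a secreted binding protein for insulin-like growth factors and a known FOXO1 target (chr11:7097785-7102549, mm9). It was at 85.7 and 142 RPKM in the unfed mice and at 0.812 and 0.907 RPKM in the fed mice. The log2 fold change was -6.35 ± 0.22 (SE, limma adjusted p = 8.31e-05). Both fed mice were far below both unfed mice, and Igfbp1 kept its call when each of the 6 libraries was left out in turn. Ppp1r3g, a glycogen-targeting subunit of protein phosphatase 1, was at 5.21 and 10.7 RPKM without food and at 0.074 and 0.083 RPKM with food. Its log2 fold change was -3.79 ± 0.40 (adjusted p = 0.00513). Depp1, a FOXO-regulated autophagy-linked gene, was at 10.6 and 12.5 RPKM in unfed and at 0.443 and 1.02 RPKM in fed mice.

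Genes of glucose output also fell. G6pc, the catalytic subunit of glucose-6-phosphatase, which releases free glucose from hepatocytes, was at 247 and 258 RPKM in the unfed and at 31.8 and 29.5 RPKM in the fed livers (log2 fold change -3.02 ± 0.12, adjusted p = 8.31e-05). Pck1, the cytosolic phosphoenolpyruvate carboxykinase (chr2:172978549-172984774, mm9), was at 1233 and 1318 RPKM in unfed and 289 and 263 RPKM in fed mice. Its log2 fold change was -2.21 ± 0.10 (adjusted p = 0.000162). The 2 mice of each group differed little for both enzymes, and neither group overlapped the other. Of the gluconeogenesis list, 12 genes were tested, 7 fell and 0 rose, with a median log2 fold change of -0.90 against 0.12 over all genes tested. Without unfed replicate 2, 5 of the 12 fell. Among the 7 were Crem, a cAMP-responsive transcription factor (-1.31), Slc25a25, a mitochondrial ATP and phosphate carrier (-1.24), and Got1, cytosolic aspartate aminotransferase (-1.05). Fbp1, fructose-1,6-bisphosphatase, did not pass the test, at 394 and 362 RPKM in unfed and 394 and 386 RPKM in fed mice.

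Several of the leading falls concerned insulin signalling, lipid partitioning and growth control. Irs2, an adaptor of the insulin receptor, was at 3.27 and 4.47 RPKM unfed and at 0.511 and 0.685 RPKM fed (log2 fold change -1.98 ± 0.16, adjusted p = 0.00184). Irs1, its close relative, was at 3.63 and 4.59 RPKM unfed and 4.57 and 4.86 RPKM fed and did not pass the test (adjusted p = 0.409). Lpin1 and Lpin2, lipins that make diacylglycerol and act in transcription, both fell. Lpin1 went from 123 and 115 RPKM to 15.9 and 19.4 RPKM, and Lpin2 from 102 and 140 RPKM to 18.6 and 18.3 RPKM. Angptl4, a secreted inhibitor of lipoprotein lipase, was at 72.7 and 121 RPKM unfed and at 13.9 and 14.1 RPKM fed.

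Ip6k2, an inositol hexakisphosphate kinase, was at 14.2 and 14.4 RPKM in unfed mice and at 1.58 and 1.62 RPKM in fed mice. The values of its replicates were nearly the same, and its log2 fold change was -2.82 ± 0.11 (adjusted p = 8.31e-05). Trp53inp1, a p53-inducible nuclear protein, fell by 2.66 on the log2 scale, and Ccng2, cyclin G2, an inhibitor of proliferation known as a FOXO target, fell by 2.36. Cyp4a14, a fatty acid omega-hydroxylase, fell by 2.58 and Elovl3, a fatty acid elongase, by 2.00. Tcp11l2 fell by 2.20. Of the 15 largest falls, 15 kept their call under median-ratio scaling, 15 did so without unfed replicate 2, and 11 did so when each library was left out in turn.

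**Figure D1:**
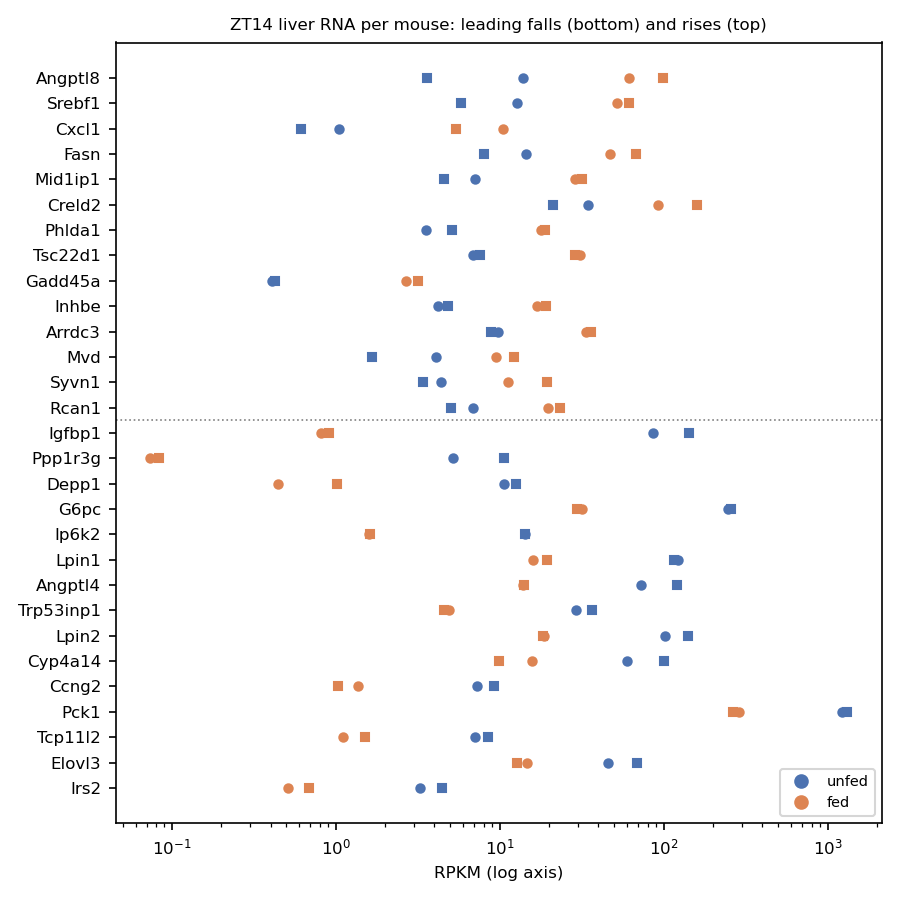
RPKM on a log axis for 14 of the 15 largest rises (upper rows) and the 15 largest falls (lower rows) among called protein-coding genes. Each point is 1 mouse, with circles for replicate 1 and squares for replicate 2, unfed in blue and fed in orange; the 2 colours do not overlap in any row, which the choice of genes required, and Igfbp1 spans the widest distance, from 142 RPKM to 0.812 RPKM.

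The largest rise was that of Angptl8, a secreted partner of the angiopoietin-like proteins that restrict lipoprotein lipase (chr9:21639954-21641790, mm9). It was at 13.9 and 3.6 RPKM in the unfed mice and at 61.9 and 99.5 RPKM in the fed mice. The log2 fold change was 3.36 ± 0.51 (adjusted p = 0.0155). The ratio between the 2 unfed mice was larger than that between the fed mice, and the call was kept in 4 of 6 fits that each left out 1 library. Srebf1, which encodes the lipogenic regulator SREBP1, was at 12.7 and 5.77 RPKM unfed and at 52.1 and 61.5 RPKM fed (2.65 ± 0.30, adjusted p = 0.0066). For both genes, unfed replicate 2, the library with muscle transcripts, was the lowest of the 4 mice, and the log2 fold changes without it were 2.46 for Angptl8 and 2.11 for Srebf1, with each still called.

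Fasn, fatty acid synthase, was at 14.4 and 8 RPKM unfed and at 46.8 and 67.5 RPKM fed (2.33 ± 0.27, adjusted p = 0.0066). Mid1ip1, which activates acetyl-CoA carboxylase, rose by 2.31 on the log2 scale. Of the fatty acid synthesis list, 23 genes were tested, 5 rose and 2 fell, with a median log2 fold change of 0.37. With median-ratio scaling 3 rose and 2 fell, and in vehicle-injected mice the median of the list was -0.11. Acaca and Acly, which make malonyl-CoA and cytosolic acetyl-CoA, were higher in both fed than in both unfed mice but did not pass the test, with adjusted p of 0.0714 and 0.0946. Scd1, stearoyl-CoA desaturase, ran the other way, at 590 and 292 RPKM unfed and 172 and 201 RPKM fed, and missed the threshold (adjusted p = 0.0628). Without unfed replicate 2 its log2 fold change was -1.66 with an adjusted p of 0.00608. In the cholesterol synthesis list, 2 of 24 genes rose and 0 fell, where 4.87% and 1.9% of all genes tested did. Mvd, mevalonate diphosphate decarboxylase, was 1 of these 2 genes, with a log2 fold change of 1.84. The median of that list was 0.40.

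In fatty acid oxidation and ketogenesis, 3 of 31 genes fell, 0 rose, and the median was -0.01. Leaving out unfed replicate 2 gave 2 falls and 1 rise. The 3 falls were Angptl4, Cyp4a14 and Cyp4a10, while Cpt1a, the entry enzyme of mitochondrial oxidation, was at 55.9 and 76 RPKM unfed and 64.6 and 70.4 RPKM fed. In glycogen metabolism, 2 of 14 genes rose and 2 fell (1 and 1 without unfed replicate 2, 1 and 2 with median-ratio scaling). Among the phosphatase-targeting subunits, Ppp1r3b rose by 0.92 on the log2 scale and Ppp1r3g and Ppp1r3c fell, by 3.79 and 0.65. Gys2, the liver glycogen synthase, was at 77.4 and 83.7 RPKM unfed and 84.4 and 84.3 RPKM fed. Of 8 genes of the urea cycle tested, 0 passed in either direction. None of 79 respiratory chain genes, 46 proteasome genes or 72 cytosolic ribosomal protein genes passed either.

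Of 19 tested genes of the list of classic GR targets, 7 fell and 0 rose, with a median log2 fold change of -0.76, and 16 were lower in both fed than in both unfed mice. Over all genes tested, 1.9% fell and 14.1% were lower in both fed mice. Tat, tyrosine aminotransferase, was at 1204 and 1274 RPKM unfed and 411 and 409 RPKM fed (-1.59 ± 0.20, adjusted p = 0.00838). Klf9, a Krüppel-like factor, fell by 1.38 and Zbtb16, a zinc finger repressor, by 1.20. Fkbp5, a GR co-chaperone often read as a marker of GR activity, was at 18.2 and 23.1 RPKM unfed and 11.8 and 12.9 RPKM fed, and missed the threshold (adjusted p = 0.0538; 0.031 with median-ratio scaling). Per1 and Sgk1 did not pass, with log2 fold changes of -0.40 and -0.33. In the list of insulin receptor pathway and FOXO-linked genes, 2 of 23 rose and 4 fell, with a median of -0.22. Gadd45a, a stress-inducible growth arrest gene in that list, went up, from 0.406 and 0.423 RPKM to 2.69 and 3.16 RPKM (1.90 ± 0.12, adjusted p = 0.00102).

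The most members called upward of any list belonged to the endoplasmic reticulum (ER). Of 36 ER chaperones and unfolded protein response genes tested, 14 rose and 0 fell, the median was 0.53, and 30 were higher in both fed than in both unfed mice. Over all genes tested, 4.87% rose and 45.6% were higher in both fed mice. Hspa5 (BiP), the main ER chaperone, was at 305 and 224 RPKM unfed and at 590 and 778 RPKM fed (1.37 ± 0.18, adjusted p = 0.0105). Creld2, an ER-resident stress protein, was at 34.4 and 21.1 RPKM unfed and 92.7 and 159 RPKM fed (2.15 ± 0.33, adjusted p = 0.0164). Syvn1, the ubiquitin ligase of ER-associated degradation, rose by 1.80, Derl3 by 1.73 and Sdf2l1, a BiP cofactor, by 1.70. With median-ratio scaling 7 of the 36 rose, and without unfed replicate 2 6 did, so the number of members called depends on both. In the list of cytosolic and mitochondrial heat shock proteins 7 of 21 rose and 0 fell (5 with median-ratio scaling and 2 without unfed replicate 2). Hspa1b, an inducible HSP70, was at 9.45 and 5.12 RPKM unfed and at 21.3 and 22.3 RPKM fed. It is nearly identical to Hspa1a, so that reads may be shared between the copies.

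The ATF4 and integrated stress response list had 2 rises and 3 falls among 24 genes, and 1 rise and 0 falls without unfed replicate 2. Ddit3 (CHOP), an effector of ER stress, was at 5.06 and 4.33 RPKM unfed and at 12.7 and 16 RPKM fed (1.51 ± 0.14, adjusted p = 0.0031), whereas Chac1, which degrades glutathione, Sesn2, an inhibitor of mTORC1, and Ppp1r15a, a phosphatase subunit that restores translation, fell by 1.51, 1.00 and 0.80. Atf4 itself was at 40.5 and 34.7 RPKM unfed and 38.1 and 45 RPKM fed. Slc38a2, an amino acid transporter, fell from 26.3 and 23.6 RPKM to 7.32 and 8.19 RPKM (-1.62 ± 0.12, adjusted p = 0.00146), and Slc7a2, a cationic amino acid transporter, fell by 1.15. Ribosome biogenesis had 1 rise among 63 genes, Rrp9, with a list median of 0.27. In vehicle-injected mice 8 of 65 genes of this list rose, and in lean mice 42 of 65, with 0 falls in either. The medians there were 0.36 and 0.49. Over all genes tested in those mice, 2.55% and 16.1% rose.

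**Figure D2:**
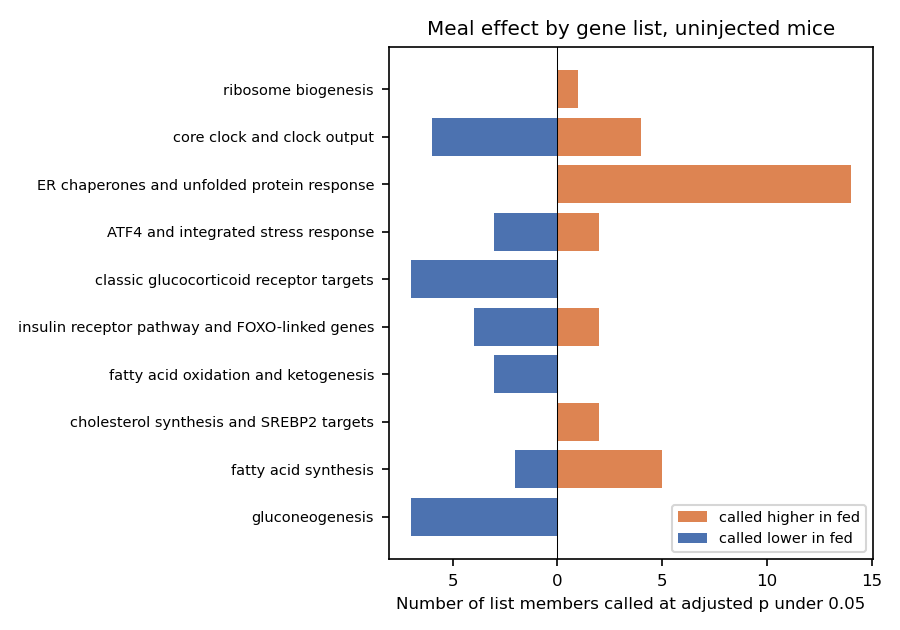
Number of list members called higher (orange, right) or lower (blue, left) in fed mice, with the number of members on the horizontal axis. The ER list reaches 14 to the right with none to the left, and gluconeogenesis and GR targets reach 7 to the left with none to the right.

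Clock genes were called in both directions, with 4 rises and 6 falls among 21. Per2, a core clock repressor, was at 3.98 and 4.01 RPKM unfed and at 9.79 and 10.48 RPKM fed (1.24 ± 0.10, adjusted p = 0.00199). Nfil3, a repressor that opposes the PAR bZIP factors, went the other way, from 9.71 and 11.1 RPKM to 3.19 and 4.45 RPKM (-1.35 ± 0.15, adjusted p = 0.00656). The PAR bZIP factors Dbp and Hlf rose by 0.76 and 0.81, and Arntl (Bmal1), the positive arm of the clock, fell by 0.86. The study measured Bmal1, Cry1, Rev-erb alpha and Dbp mRNA by RT-qPCR, with more mice than were sequenced here. It reports no significant difference between unfed and fed mice at ZT14 for any of them. Nr1d1 (Rev-erb alpha) was at 1.57 and 2 RPKM unfed and 1.59 and 1.95 RPKM fed. Without unfed replicate 2, 3 clock genes rose and 1 fell. In vehicle-injected mice 0 clock genes of 21 passed, and in lean mice 3 rose and 6 fell. The direction turned in lean mice for Dbp (-0.67) and Arntl (0.35), neither of them called there, and Dbp was at -0.12 in vehicle-injected mice. The differences from lean mice did not pass the test, with limma adjusted p of 0.283 for Dbp and 0.284 for Arntl.

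Among secreted factors of the liver, 5 of 22 rose and 1 fell, with 3 rises after median-ratio scaling and 2 without unfed replicate 2. Inhbe, which encodes the activin E subunit, was at 4.17 and 4.84 RPKM unfed and 17 and 19.3 RPKM fed (1.89 ± 0.14, adjusted p = 0.00146). Tsku, a small secreted proteoglycan, was at 27.7 and 34.5 RPKM unfed and at 74.8 and 80.6 RPKM fed. Cxcl1, a chemokine that attracts neutrophils, was at 1.05 and 0.61 RPKM unfed and at 10.4 and 5.38 RPKM fed (2.61 ± 0.31, adjusted p = 0.007), and Socs3, a feedback inhibitor of cytokine signalling, rose by 1.56. The acute phase list had 0 calls in either direction among 24 genes. Interferon-stimulated genes had 6 rises and 0 falls among 29 (4 with median-ratio scaling and 1 without unfed replicate 2). Stat2, a transducer of type I interferon, rose by 0.90. Histone genes had 3 rises among 31 tested, where 4.87% of all genes tested rose. H1f4, a linker histone, was at 14.7 and 15.2 RPKM unfed and 24.4 and 26.2 RPKM fed. Replication-dependent histone mRNAs lack a poly(A) tail and are read in this kind of library. Major urinary proteins had 3 rises among 22 and 0 with median-ratio scaling or without unfed replicate 2, and these near-identical copies may share reads.

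The remaining leading rises were of mixed function. Tsc22d1, a transcription regulator of the TSC22 family, was at 6.89 and 7.57 RPKM unfed and 30.7 and 28.7 RPKM fed (1.97 ± 0.10, adjusted p = 0.000193), which was the smallest standard error among the 15 largest rises. Arrdc3, an arrestin-domain adaptor, was at 9.78 and 8.8 RPKM unfed and 33.5 and 36 RPKM fed, and Rcan1, an inhibitor of calcineurin, rose by 1.79. Phlda1 was at 3.56 and 5.08 RPKM unfed and 17.8 and 18.9 RPKM fed (adjusted p = 0.0377), and its call was lost with median-ratio scaling (0.0592) and without unfed replicate 2 (0.0695). Of the 15 largest rises, 14 kept their call with that scaling, 14 without that library, and 5 when each library was left out in turn. Of the genes said above to have risen or fallen, Sdf2l1, Socs3 and Tsku also lost their call with median-ratio scaling. Without unfed replicate 2, the calls of Arntl, Chac1, Cyp4a10, Derl3, Ppp1r15a, Ppp1r3c, Rrp9, Sesn2, Socs3 and Tsku were lost.

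The test took in 581 noncoding genes, for which every RefSeq entry is noncoding. In the poly(A) libraries, 484 of them were also tested in vehicle-injected and 491 in lean mice. In vehicle-injected mice 4 of the 484 rose and 0 fell, where 2.55% and 0.578% of all genes did. In lean mice 56 of the 491 rose and 26 fell, where 16.1% and 7.28% of all genes did. In uninjected mice 22 of the 581 rose and 19 fell, where 4.87% and 1.9% of all genes did. Leaving out unfed replicate 2 gave 7 rises and 3 falls, and with median-ratio scaling 17 rose and 26 fell. By class, 6 of 284 long noncoding RNAs rose and 7 fell, 9 of 166 microRNA (miRNA) hairpins rose and 9 fell, 2 of 77 small nucleolar RNAs rose and 3 fell, and 4 of 38 transcribed pseudogenes rose. In the fit without that library, 1 long noncoding RNA rose and 0 fell, 5 hairpins rose and 2 fell, 0 small nucleolar RNAs rose and 1 fell, and 1 pseudogene rose. Values were turned back into read counts at the depth estimated from the steps of these same short genes. At that depth, 98.2% to 99.7% of values up to 10 reads were whole reads within 0.05. Values of 1 read set the depth, so this share is in part fixed in advance. Read counts were not divided by depth. The estimated depth was 37900000 and 32600000 reads in the unfed and 28900000 and 25800000 in the fed libraries. At an equal level, the deeper unfed libraries therefore hold more reads. Fold changes and p-values were taken from RPKM. The calls on hairpins rest on few reads, with a median of 5 reads in the highest mouse for those that rose and 7 for those that fell. A hairpin read in such libraries comes from the precursor or its host transcript and does not measure the mature miRNA, and without stated strand the host cannot be told apart from the hairpin.

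Several neighbouring hairpins lost reads at the miR-290 to miR-295 cluster on chromosome 7, which is known for its expression in embryonic stem cells. Over 6 hairpins that do not overlap each other, reads were summed without division by depth. The sums were 30 and 41 in the unfed mice, 3 and 3 in the fed mice, and 7 and 16 in the mice at ZT10. The hairpins were Mir291a, Mir291b, Mir292, Mir293, Mir294 and Mir295, a set chosen after values were seen. Mir290a and Mir290b are not in the sum. Mir294 had 10 and 8 reads unfed and 0 in both fed mice (adjusted p = 0.00153). Mir295 had 4 and 3 reads unfed and 0 in both fed mice (adjusted p = 0.0234), Mir293 had 4 and 7 reads unfed and 0 and 1 fed (adjusted p = 0.0401), and Mir292b, which overlaps Mir292, had 3 and 4 reads unfed and 0 in both fed mice. Mir291a, Mir291b and Mir292 were also lower in both fed mice but did not pass the test. The long noncoding RNA D7Ertd143e, which spans the cluster, was at 1.29 and 2.54 RPKM unfed and 0.444 and 0.257 RPKM fed (-1.47 ± 0.26, adjusted p = 0.0225). Nlrp12, the coding gene whose annotated span covers the cluster, was at 11.6 and 16.8 RPKM unfed and 6.61 and 5.87 RPKM fed (-1.10 ± 0.17, adjusted p = 0.0155). The log2 fold change of D7Ertd143e was -1.46 in lean mice (limma adjusted p = 0.00607) and -0.72 in vehicle-injected mice, where it did not pass (adjusted p = 0.0973). The mature sequences of the cluster are shown because 3 of the hairpins share a seed, given in capitals (bases 2 to 8, sequences from RefSeq).
mmu-miR-291a-3p: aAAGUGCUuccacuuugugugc
mmu-miR-294-3p: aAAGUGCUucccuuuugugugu
mmu-miR-295-3p: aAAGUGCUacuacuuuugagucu
mmu-miR-291b-3p: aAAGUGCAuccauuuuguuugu
mmu-miR-293-3p: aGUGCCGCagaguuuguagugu
The 3p arms of miR-291a, miR-294 and miR-295 carry the seed AAGUGCU, and miR-291b-3p and miR-293-3p carry other seeds.

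**Figure D3:**
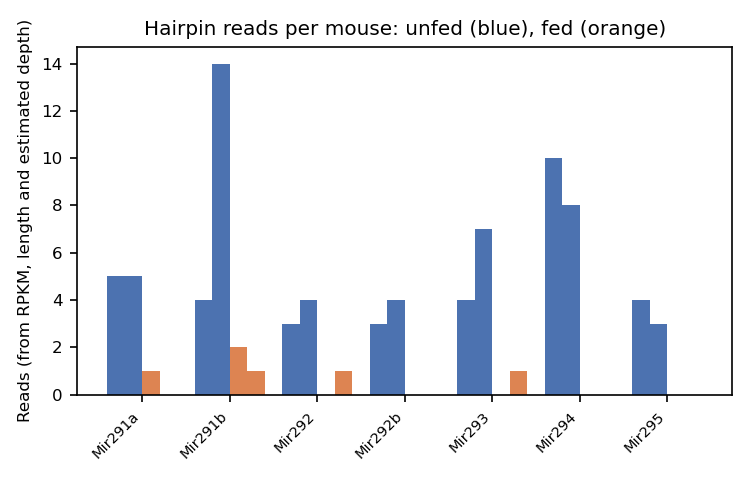
Reads per mouse at the hairpins of the cluster from Mir291a to Mir295 (vertical axis, reads derived from RPKM, length and estimated depth), in the order unfed replicate 1, unfed replicate 2, fed replicate 1 and fed replicate 2, with a missing bar for 0. Unfed mice (blue) reach 14 reads at Mir291b and 10 at Mir294, and fed mice (orange) reach at most 2 at any hairpin shown. Reads are not divided by depth, which was larger in both unfed libraries than in both fed ones.

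On the rising side, the hairpins Mir6921 and Mir6922 lie within Srebf1. Mir6921 had 1 and 0 reads unfed and 12 and 13 reads fed (3.27 ± 0.25, adjusted p = 0.00153), and Mir6922 had 4 and 3 reads unfed and 7 and 11 reads fed. Their direction was that of Srebf1, described above. Mir22 had 29 and 24 reads unfed and 9 and 10 reads fed (-1.02 ± 0.12, adjusted p = 0.0066), and its host Mir22hg fell by 0.65. Of the 9 hairpins that rose, 8 lay in a tested host gene and 6 of these hosts differed in the same direction, and of the 9 that fell 8 lay in a tested host and 7 of these did. Hosts that were themselves called in that direction numbered 3 and 5, where 4.87% of all genes tested rose and 1.9% fell. The median gene was 0.12 higher in fed mice on the log2 scale, so a host that is higher in fed mice is not a rare event. Malat1, an abundant nuclear long noncoding RNA, was at 87.8 and 111 RPKM unfed and 180 and 195 RPKM fed (0.92 ± 0.17, adjusted p = 0.0256; 0.0547 with median-ratio scaling). Neat1, the scaffold of paraspeckles, was at 11.3 and 13.3 RPKM unfed and 25.9 and 28.5 RPKM fed and missed the threshold (adjusted p = 0.0592). The snoRNA hosts Snhg3 and Zfas1 also fell, Snhg3 by 1.16 and Zfas1 by 0.90, with adjusted p of 0.0202 and 0.0457. Without unfed replicate 2, Mir294, Mir6921, Mir22 and Malat1 kept their calls, Mir292b was below the filter, and D7Ertd143e, Mir293, Mir295, Mir6922, Mir22hg, Snhg3 and Zfas1 lost theirs.

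The study's lists of GR and FOXO1 binding sites hold 10446 and 8546 peaks. Both lists come from livers of unfed mice, so that sites bound in fed liver alone are not in them. Of genes that fell and had a position, 187 of 201 (93.0%) had a GR or FOXO1 peak centred within 50 kb of a start site, against 71.8% of genes that rose (372 of 518) and 65.1% of all tested genes with a position (6878 of 10568). FOXO1 peaks were near 88.6% of the falling genes and 54.04% of all, and GR peaks near 82.6% and 51.3%. At 20 kb the shares were 86.1% of falls, 55.0% of rises and 47.5% of all genes. These shares were not tested, and the distance says nothing on which gene a site acts upon.

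**Figure D4:**
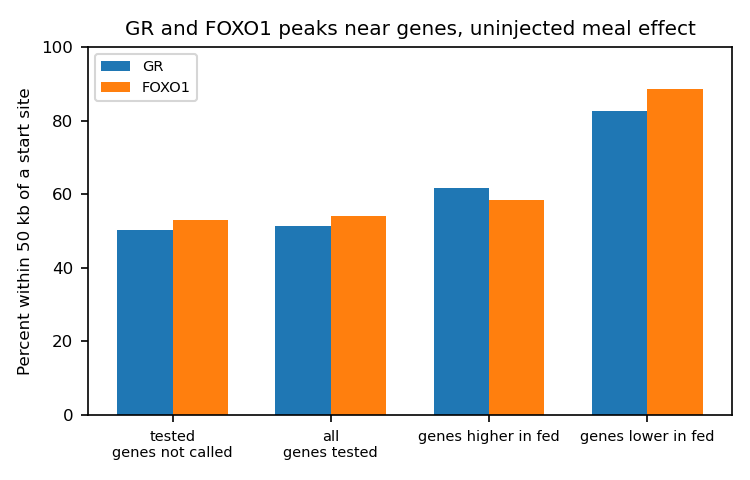
Percent of genes (vertical axis) with a GR (blue) or FOXO1 (orange) peak centred within 50 kb of a start site, for genes not called, all tested genes, and genes higher or lower in fed mice. Genes lower in fed mice reach 82.6% for GR and 88.6% for FOXO1, against 51.3% and 54.04% of all genes tested.

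Peak sequences of 180 bases are shown for 4 of the largest falls and for the miRNA cluster, to show peaks with both, 1 or neither of 2 short motifs. Capitals mark the forkhead motif GTAAACA or its complement TGTTTAC, and the GR half-site AGAACA or its complement TGTTCT, searched on both strands. The forkhead motif was found in 18.8% of FOXO1 peaks, 7.29% of GR peaks and 4.66% of the study's DNase-accessible regions, over windows of the same length, and the half-site in 19.5%, 27.7% and 15.3%. All are on the plus strand of mm9, at chr10:84038954-84039133 (FOXO1 peak, -327 bases from the start site of Tcp11l2), chr17:71553718-71553897 (FOXO1 peak, -186 bases from a start site of Lpin2), chr9:108685773-108685952 (GR peak, -264 bases from the start site of Ip6k2), chr2:172978189-172978368 (GR peak, -270 bases from that of Pck1) and chr7:3220333-3220512 (GR peak within the miRNA cluster, -219 bases from Mir294).
Tcp11l2 FOXO1: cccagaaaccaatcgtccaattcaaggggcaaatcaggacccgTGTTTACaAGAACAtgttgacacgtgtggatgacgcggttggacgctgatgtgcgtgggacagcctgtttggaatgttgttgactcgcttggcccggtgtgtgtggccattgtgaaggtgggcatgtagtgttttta
Lpin2 FOXO1: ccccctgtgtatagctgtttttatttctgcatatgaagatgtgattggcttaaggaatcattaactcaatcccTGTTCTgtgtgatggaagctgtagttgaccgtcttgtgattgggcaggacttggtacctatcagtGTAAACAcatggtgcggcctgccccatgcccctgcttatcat
Ip6k2 GR: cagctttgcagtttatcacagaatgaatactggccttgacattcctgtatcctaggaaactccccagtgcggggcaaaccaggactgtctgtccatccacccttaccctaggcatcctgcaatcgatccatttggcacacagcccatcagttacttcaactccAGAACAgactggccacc
Pck1 GR: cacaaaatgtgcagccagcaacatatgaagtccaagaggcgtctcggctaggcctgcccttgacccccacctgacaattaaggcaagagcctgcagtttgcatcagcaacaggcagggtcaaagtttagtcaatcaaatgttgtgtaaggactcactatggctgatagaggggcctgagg
Mir294 GR: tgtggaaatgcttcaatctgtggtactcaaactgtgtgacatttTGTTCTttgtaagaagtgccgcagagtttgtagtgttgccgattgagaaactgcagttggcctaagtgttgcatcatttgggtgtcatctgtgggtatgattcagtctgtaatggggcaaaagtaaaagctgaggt
In the Tcp11l2 peak both motifs stand next to each other, and in the Lpin2 peak they lie apart. The Ip6k2 and cluster peaks hold 1 half-site each, and the Pck1 peak holds neither. The FOXO1 peaks near Depp1, Lpin1, Pck1 and Mir294, which are not shown, hold no forkhead motif. The cluster peak holds the sequences of miR-293-5p and miR-293-3p, and its distance was taken from the start of the Mir294 hairpin. A match is a description of letters and not a binding event.

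The same meal was compared in the vehicle-injected and the lean mice, which share no library with the uninjected mice. In vehicle-injected mice 287 of 11251 genes rose (2.55%) and 65 fell (0.578%), and in lean mice 1841 of 11434 rose (16.1%) and 832 fell (7.28%). With the replicate number as a block in the fit, 756 rose and 172 fell in vehicle-injected mice, and 1603 rose and 736 fell in lean mice. Whether replicate numbers paired the vehicle-injected mice was not checked, so counts of calls in them depend on this choice. Of the genes that rose in uninjected mice, 463 of 521 tested (88.9%) had a positive log2 fold change in vehicle-injected mice and 489 of 524 (93.3%) in lean mice, against 66.9% and 61.5% of all genes. Of the genes that fell, 174 of 203 (85.7%) and 194 of 206 (94.2%) had a negative one, against 33.1% and 38.5% of all genes. Called rises there numbered 78 (14.97%) and 318 (60.7%), and called falls 33 (16.3%) and 129 (62.6%). The uninjected libraries were depleted of ribosomal RNA and the others were selected for poly(A), so that the kit, the injection and the batch of mice cannot be told apart. The lean mice were also older, and their age cannot be told apart from these either.

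The 15 largest falls had a median log2 fold change of -2.66 in uninjected, -1.31 in vehicle-injected and -2.55 in lean mice, and the 15 largest rises 1.98, 1.20 and 2.03. These genes were chosen for their size in the uninjected mice. Of the falls, 15 of 15 were negative in both other sets and 10 and 14 were called there. The gap to the vehicle-injected mice was widest for Ppp1r3g, with -3.79 against -0.10 in vehicle-injected and -3.70 in lean mice, and for Cxcl1, with 2.61 against -0.19 and 0.53. Lpin1 showed -2.72 against -0.28 and -2.75. In the fit of the difference between uninjected and vehicle-injected mice, none of these passed, with limma adjusted p of 0.179 for Ppp1r3g, 0.331 for Cxcl1 and 0.136 for Lpin1. Over all 11327 genes, 0 differences from vehicle-injected mice passed (limma, smallest adjusted p = 0.0646, with 889 genes at an unadjusted p below 0.05), and 3 differences from lean mice passed (0.0265%, 865 at an unadjusted p below 0.05). With 2 uninjected mice a side, a p above the threshold does not show that the meal acted alike.

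The 3 genes whose meal effect differed from that in lean mice were Elk4, an ETS factor, N4bp2 and Utrn, utrophin. Elk4 was at 5.3 and 6.69 RPKM unfed and 6.37 and 6.51 RPKM fed in uninjected mice (log2 fold change 0.10), with -0.93 in lean mice and a difference of 1.04. N4bp2 had 0.19 against -0.69 in lean mice, and Utrn 0.29 against -0.54. All 3 had a limma adjusted p of 0.0386 for the difference. None of the 3 was called in the uninjected mice themselves. These calls depend on the settings, since 0 differences from lean mice passed with the replicate block, with the compared groups alone, over every RefSeq ID, or without either fed uninjected mouse.

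**Figure D5:**
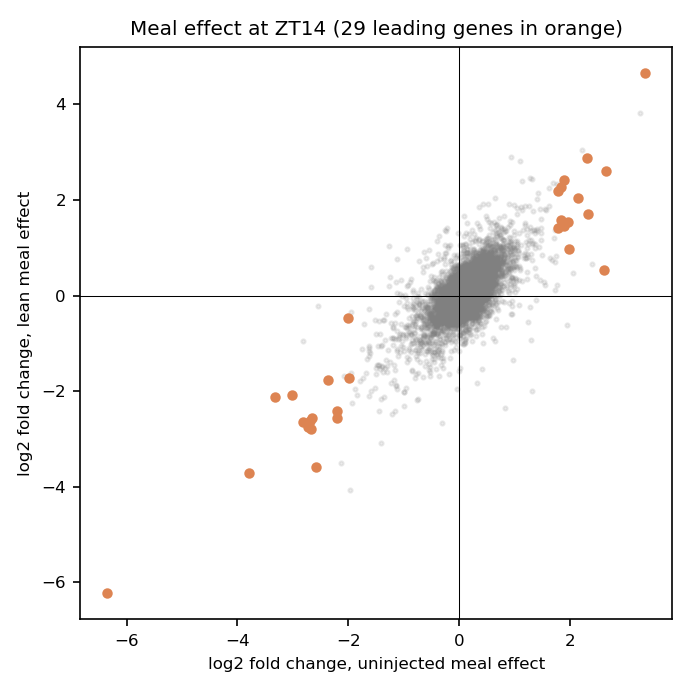
Log2 fold change between fed and unfed mice in uninjected (horizontal axis) and lean mice (vertical axis), with each gene tested in both as a grey point and 29 of the 30 leading genes in orange. All 29 lie in the quadrants of equal sign, Igfbp1 at -6.35 and -6.22 lies lowest, and Cxcl1 and Elovl3 lie close to 0 in lean mice, at 0.53 and -0.47.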

How the data were processed

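RNA was measured in livers of single mice. The authors prepared ribosome-depleted libraries, aligned reads to mm9 with STAR, and deposited RPKM on 35707 RefSeq IDs; counting settings and use of strand are not given in the sources used here. The GR, FOXO1 and DNase lists that the authors deposited hold peak positions, called with HOMER, with GR and FOXO1 peaks kept where 2 replicates agreed (BEDtools). RPKM divides by depth and length but leaves shifts from a few abundant genes uncorrected. IDs were reduced to 24312 symbols, by the ID with the highest mean, and 300 IDs had no symbol. The 6 libraries of the experiment were fitted with limma 3.58.1 in R 4.3.3 (lmFit, eBayes with trend) on log2(RPKM + 0.5), for genes that averaged 0.5 RPKM or more over these libraries, with a Benjamini-Hochberg adjusted p below 0.05 as the call. A fold change on this scale understates the change of low genes. Vehicle-injected and lean mice were fitted apart, and differences in a joint fit. Steps were checked on simulated data. The depth per library was estimated here.

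Genes named were the 15 largest rises and falls among called coding genes of at least 2 RPKM whose mice do not overlap. To these were added up to 4 called members of each gene list with textbook members, and called differences. The 10 largest noncoding rises and falls were also listed, and only part of them is named above. The experiment and the lists were chosen with earlier results of these data known, and the textbook members, the skeletal muscle list, other noncoding genes and the sequences shown were chosen after values were seen. Gene positions are from the GENCODE annotation of mm9, and miRNA classes, hosts and sequences from RefSeq (GRCm38.p6, used for names only). Alternatives were the scaling, pseudocount, filter, ID choice, variance trend, threshold, groups fitted, replicate block and leaving out each library. Other RNA libraries and the H3K27Ac data were not analysed here, and some genes are not reported here. Python with pandas and scipy was used for tables.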

Additional observations from a re-analysis of the deposited data

Results flagged for a closer look

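Among 29 of the 30 leading genes, the groups of 4 vehicle-injected mice were searched for a mouse far from the other 3, in 58 tests, of which chance flags about 1 in 20. Among unfed vehicle-injected mice, Ccng2 was at 5.25 RPKM in one mouse and at 7.69 to 8.11 in the others, Lpin2 at 68.3 against 112 to 121, and Tcp11l2 at 4.68 against 12.8 to 13.6. Mid1ip1 was at 13.1 RPKM in one mouse against 5.68 to 6.44. Among fed vehicle-injected mice, Tsc22d1 was at 19.4 RPKM in one mouse against 12.2 to 13.1. The tests shared the same mice and were not independent of each other. Whether the flags fell on the same mouse was not recorded.

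The meal effect in uninjected mice differed from that in lean mice by 1.04 on the log2 scale for Elk4, by 0.887 for N4bp2 and by 0.835 for Utrn (limma joint fit, adjusted p = 0.0386 for each). None passed with the replicate block or without either fed uninjected mouse, and the kit and the mice of the comparison cannot be told apart.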

How the results depend on the processing

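The number of genes called depends on most choices. Against 531 higher and 207 lower, there were 70 and 46 with no filter on low values, 278 and 329 after median-ratio scaling, 274 and 272 after quantile normalization, 1013 and 355 over every RefSeq ID, and 62 and 46 at an adjusted p below 0.01. Leaving out 1 library gave 13 to 438 higher and 26 to 310 lower genes, the lowest without fed replicate 2 (13 and 26), then fed replicate 1 (82 and 37) and unfed replicate 2 (140 and 82), each fit having fewer samples. Replicate numbers gave no sign of pairing, since deviations of fed and unfed mice of the same number correlated at -0.0063 over 10907 genes. With 2 mice a group this cannot show that the mice were unpaired. The replicate block gave 311 and 153 genes.

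Vehicle-injected mice had 352 calls, with 216 after median-ratio scaling, 215 after quantile normalization, 928 with the replicate block, 66 at 0.01 and 86 to 509 on leaving out 1 library. Lean mice had 2673 calls, with 4382 over every RefSeq ID, 1169 at 0.01 and 1727 to 3225 on leaving out 1 library. The 0 differences from vehicle-injected mice became 39 with no filter, 1 with the replicate block and 0 to 44 on leaving out 1 library (44 without fed vehicle replicate 4, 32 without unfed replicate 1 of the uninjected mice). The 3 differences from lean mice became 8 with a pseudocount of 0.1, 49 with no filter, 6 with a filter of 2 RPKM, 5 with median-ratio scaling, 0 with the compared groups alone, with the replicate block, over every RefSeq ID or at 0.01, and 0 to 25 on leaving out 1 library.

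Of 103 called genes among the 144 named genes followed, 23 kept their call with each library left out, 18 lost it under median-ratio scaling and 46 without unfed replicate 2. The shares of genes with a GR or FOXO1 peak moved with the window, to 55.02% and 86.07% at 20 kb and 84.75% and 96.02% at 100 kb for rises and falls. None of the 103 called genes followed changed direction under these alternatives, and other called genes were not followed. Some uncalled genes near 0 changed direction. Under scaling by the median ratio these were Atf4 (-0.0013), Cpt1a (-0.094), Elk4 (-0.030), Fbp1 (-0.097), Gys2 (-0.076), Insr (-0.0028) and Pklr (-0.020), and quantile normalization turned Cpt1a (-0.0066). On leaving out 1 library, Cpt1a ranged from -0.17 to 0.27, Elk4 from -0.053 to 0.26, Ppara from -0.15 to 0.59, Cps1 from -0.18 to 0.054, Fbp1 from -0.013 to 0.11, Nr1d1 from -0.14 to 0.13 and Pklr from -0.077 to 0.32. Counts within gene lists under median-ratio scaling and without unfed replicate 2 were chosen after seeing the data. The causes were not tested.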
